A study of Mus musculus with 6 samples.

Results

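Fast-twitch skeletal muscle fibres are built around a set of sarcomere proteins, and the RNAs of 10 genes that encode them were followed here in samples labelled as mouse spinal cord. The genes were Mylpf, Acta1, Myl1, Tnni2, Tnnc2, Tnnt3, Myh1, Myh4, Actn3 and Myom2. They were selected on their intensities in these same arrays, where most of them read far higher in the pools labelled Egr3-deficient than in wild type, and members were then found by matching the gene symbol of each probe set. The symbol match returned 18 probe sets among 45265 and 10 gene symbols among 18193. Array type A held 14 of these probe sets, from all 10 genes, and array type B held 4, from Myh4 and Myom2. Because the contrast with wild type had chosen the genes, their differences from wild type are given as descriptions. Counts of members called in the fit across all probe sets are printed beside the share of all probe sets called, and support nothing.

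The arrays came from 3 RNA pools of lumbar spinal cord, segments L3 to L5, of mice at postnatal day 27, and each pool held total RNA of 3 cords. According to the labels, pools 1 and 2 came from Egr3-deficient mice and the remaining pool from wild-type mice, and each pool was hybridised once to each array type as its own labelled extract. The labels of pool 2 and of wild type record an acclimatization treatment that the label of pool 1 does not, so the 2 pools labelled Egr3-deficient also differ in what is recorded of their handling. The labels give no strain, allele, sex or dissection detail, and the series title places the study in gamma motor neurons, the cells that innervate muscle spindles.

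A sarcomere contracts when myosin heads of the thick filament pull on actin of the thin filament. Calcium released into the fibre binds troponin C, which moves troponin I and troponin T on tropomyosin and opens the actin sites to myosin. Fast fibres use their own isoforms of the myosin heavy and light chains and of the 3 troponins, whereas slow fibres and the heart use others. Z-discs, which hold alpha-actinin, anchor the thin filaments, and the M-band ties the thick filaments together. Neurons and glia move and shape themselves with separate, widely expressed actins and myosins, and a skeletal sarcomere is not part of a spinal cord cell. Egr3 itself is a zinc-finger transcription factor best known for its need in forming the muscle spindle.

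Sequences upstream of the start were available for 6 of the 10 genes, and 4 of them are shown. Those shown cover the thin filament, the light chains and the heavy chains among the members, and those of Mylpf and Tnnc2 are not shown. The windows are the 250 bases before the annotated start, on the coding strand and 5′ to 3′, from RefSeq on assembly GRCm38.p6. They lie at chr8:123894776-123895025 (minus strand) for Acta1, chr1:66945057-66945306 (minus) for Myl1, chr11:67199852-67200101 (plus) for Myh1 and chr11:67237562-67237811 (plus) for Myh4. Capitals mark matches, on either strand, to the E-box CANNTG read by myogenic regulators, to the MEF2 site, to the SRF site (CArG box), to the MCAT element CATTCC and to TATAAA, whose reverse complement can overlap the MEF2 match.
Acta1: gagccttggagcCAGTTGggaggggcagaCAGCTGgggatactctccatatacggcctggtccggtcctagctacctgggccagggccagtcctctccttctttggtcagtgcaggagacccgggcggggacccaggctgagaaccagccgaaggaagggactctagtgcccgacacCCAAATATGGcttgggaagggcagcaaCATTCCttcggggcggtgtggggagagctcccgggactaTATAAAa
Myl1: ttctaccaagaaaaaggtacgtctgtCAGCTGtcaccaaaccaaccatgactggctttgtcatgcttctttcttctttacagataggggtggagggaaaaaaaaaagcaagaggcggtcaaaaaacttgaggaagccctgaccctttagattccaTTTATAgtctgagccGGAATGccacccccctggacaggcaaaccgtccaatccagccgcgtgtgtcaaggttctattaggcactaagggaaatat
Myh1: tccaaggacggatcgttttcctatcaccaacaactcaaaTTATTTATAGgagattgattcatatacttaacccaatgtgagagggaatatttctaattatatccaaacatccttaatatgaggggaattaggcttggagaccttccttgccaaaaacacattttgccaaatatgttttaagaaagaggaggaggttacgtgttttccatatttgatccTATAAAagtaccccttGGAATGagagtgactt
Myh4: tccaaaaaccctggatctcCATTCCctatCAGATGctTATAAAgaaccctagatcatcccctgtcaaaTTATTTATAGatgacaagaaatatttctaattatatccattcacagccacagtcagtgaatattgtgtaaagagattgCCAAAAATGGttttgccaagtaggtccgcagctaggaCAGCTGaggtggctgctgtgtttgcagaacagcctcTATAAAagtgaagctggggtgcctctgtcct

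Both myosin heavy chain promoters held the same MEF2 match, TTATTTATAG, which begins at position -211 from the start of Myh1 and -182 from that of Myh4, and both held TATAAA, at -32 and -31. A MEF2 match was present in 2 of the 6 windows and in 2.92% of all 32851 promoter windows of this length. An SRF match was present in Acta1 and Myh4, against 1.47% of all windows. MCAT was found in 4 of the 6, against 12.6% of all, TATAAA in 4, against 12.4%, and an E-box in 5, against 66.2%. The windows of Mylpf and Tnnc2, which are not shown, held E-box matches but no MEF2, SRF, MCAT or TATAAA match. The motif GCGNGGGCG, the core bound by the EGR family, was in 0 of the 6 windows and in 4.7% of all. These counts describe letters in short windows and carry no measurement of binding.

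Intensities were on the authors' linear scale, on which the trimmed mean of every array was close to 150. A probe set was kept for testing where its mean log2(intensity + 16) reached the 40th percentile of its array type, which corresponded to an intensity of 36.7 on A and 55.9 on B. All differences use that log2(intensity + 16) scale after quantile normalization, on which changes of dim probe sets are understated, and each mean difference carries the SE of the limma fit over the 3 arrays. With 1 residual degree of freedom, that SE measures only the spread between these pools and borrows from other probe sets, and it assumes that the single wild-type pool varies as the other pools do. An exact permutation test on 2 pools against 1 cannot give a two-sided p below 0.333. In bulk RNA of this kind, more cells of a type and more RNA per cell cannot be told apart. Levels of different probe sets were not compared, since probe sets differ in their response.

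The pools read as spinal cord by the defining markers, and readings of other tissues' markers are given further below. The summed intensity of 17 neuronal and glial genes on A was 30655 in pool 1 and 36486 in pool 2, with wild type at 44593, and Mbp, the myelin basic protein gene, read 8836, 11730 and 14549. Nefl, a neurofilament of neurons, read 4544, 4757 and 5066. After quantile normalization, 9 of the 17 genes on A were lower than wild type in both pools and 4 were higher in both. Mean differences there reached -1.74 for Aqp4 and -1.68 for Map2. On B the same kind of sum over 10 genes ran the other way, from 42903 and 38743 down to 35987. Even so, 5 of the 10 were lower than wild type in both pools after quantile normalization, and 2, Aqp4 and Slc1a2, fell by the limma test. The median of that list on B was -0.17 and turned to 0.45 with median centring. Nefl and Mobp, a myelin gene, read 11605, 10839 and 10019, and 13383, 8695 and 6477 there. Egr3 did not follow the label. It read 24.9 in pool 1 and 52.7 in pool 2, with wild type at 40.6 on A, and 210, 107 and 75.3 on B, and no source used here says whether these probe sets lie in the deleted part of the gene. Because of this, the pools are called by their labels throughout.

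The thin filament members Acta1, Tnnc2, Tnni2 and Tnnt3, each by its brightest probe set, read several-fold higher in both pools labelled Egr3-deficient than in wild type on A. Acta1, the skeletal alpha-actin of adult fast and slow fibres alike, read 1096 in pool 1 and 1205 in pool 2, with wild type at 39.7. The pools labelled Egr3-deficient were close to each other. Both stood above wild type, as they did in 47.9% of all kept probe sets on A. The difference was 4.30 in pool 1 and 4.54 in pool 2, with a mean of 4.42 (SE 0.30, n = 2 pools against 1), and the deposited intensities stood 27.6 and 30.4 times above wild type. Acta1 was also the only member whose wild-type intensity on A reached the filter intensity. Cardiac actin (Actc1) is a close relative of Acta1. Probe sequences were not available, so whether this probe set also reads Actc1 could not be checked.

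The 3 fast troponins likewise read higher in both pools labelled Egr3-deficient than in wild type, by their brightest probe sets. Tnnc2, the calcium sensor, read 444 and 561 in the same pools and 12.6 in the wild-type pool, a mean difference of 4.20 (SE 0.33). Tnni2, the inhibitory subunit, had 3 probe sets, and they did not behave alike. Its brightest read 301, 269 and 1.33 (mean difference 4.12, SE 0.33), and this was the only kept gene-level reading on A in which pool 1 stood above pool 2. A second, of a type open to cross-hybridization, read 138, 189 and 5.43 (3.09, SE 0.34). The remaining Tnni2 probe set was dim in every pool, at 3.51, 4.20 and 3.27, and showed a difference of 0.041. Tnnt3, the tropomyosin-binding subunit, read 209, 342 and 18.9, with a mean difference of 3.10 (SE 0.38). Wild-type readings of these troponins all lay under the filter intensity, so their ratios to wild type rest on a dim denominator and are not read as sizes.

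Thick filament genes included the pair with the largest gene-level differences on A. Myl1, an essential light chain that supports the myosin lever arm, read 579 in pool 1 and 1093 in pool 2, with wild type at 15.1. Pool 2 was clearly the higher of the pools labelled Egr3-deficient, and both were far from wild type, with differences of 4.26 and 5.22 and a mean of 4.74 (SE 0.43). Mylpf, the fast regulatory light chain, read 594, 608 and 8.41, a mean difference of 4.67 (SE 0.31). In the wild-type pool Mylpf sat at the 14.7th percentile of probe sets, and in pools 1 and 2 at the 92.4th and 92.8th. Set against the filter intensity in place of the dim wild-type reading, Mylpf was 16.2 and 16.6 times higher.

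The heavy chains are the motors themselves, and among the members Myh1 encodes the type IIx and Myh4 the type IIb chain. Myh1 had 3 probe sets on A. The brightest read 291, 316 and 10.6 (mean difference 3.62, SE 0.32), and a cross-hybridizing type read 250, 263 and 2.10 (3.92, SE 0.32). The last was dim, at 18.5, 9.17 and 4.39, was not kept, and showed a difference of 0.56. Myh4 read 77.7 in pool 1 and 276 in pool 2, with wild type at 1.73 on A. Its differences were 2.49 and 4.04, a mean of 3.27 (SE 0.59), the widest SE among the members kept on A. Myh1, Myh2 and Myh4 are close relatives by sequence, so probe sets for one may also read another.

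On B a different Myh4 probe set gave 53.4 in pool 1 and 180 in pool 2, with wild type at 60.5. Here pool 1 lay below wild type in the deposited intensities and 0.12 above it after normalization, while pool 2 lay 1.49 above, a mean of 0.81 (SE 0.62). The B probe set thus separated pool 2 from wild type but not pool 1.

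At the Z-disc, Actn3, the fast-fibre alpha-actinin, read 130 and 194 in the pools labelled Egr3-deficient and 5.75 in wild type, a mean difference of 3.05 (SE 0.36). At the M-band, Myom2, the M-protein of fast fibres, had 1 probe set on A and 3 on B, which disagreed. The A probe set was dim throughout, at 5.27, 6.17 and 4.39. On B the first, of a type open to cross-hybridization, read 153, 219 and 6.06 (3.24, SE 0.63). A second of the same type read 76.1, 102 and 64.01 (0.57, SE 0.63), and its direction turned to -0.11 when the arrays were scaled on the probe sets common to A and B. The third read 7.04, 8.12 and 22.8 and was lower in both pools labelled Egr3-deficient. The Myom2 result therefore depended on which probe set was read.

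**Figure D1:**
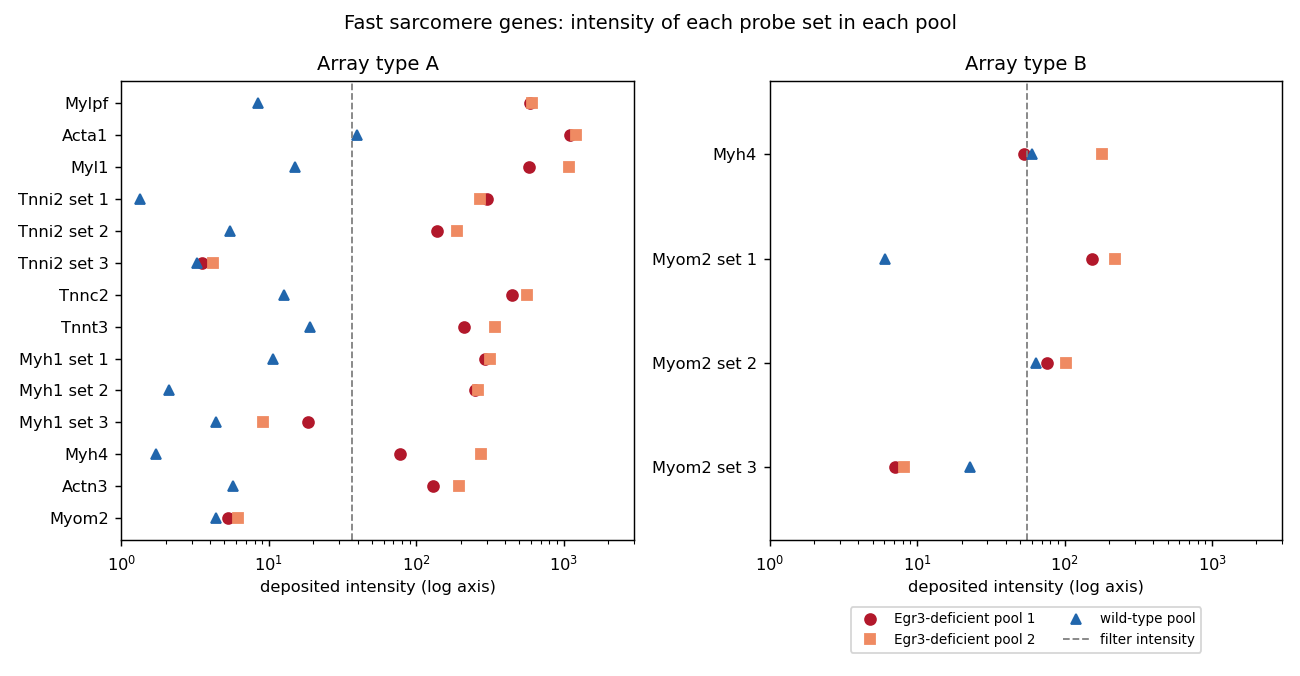
Deposited intensity (log axis) of every member probe set in pool 1, pool 2 and the wild-type pool, on array types A (left) and B (right), with the filter intensity as a dashed line. On A, 11 of 14 probe sets have wild type well to the left of both other pools, and only Acta1 has a wild-type reading past the line. Numbered sets of a gene run from the brightest down.

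Over the 14 member probe sets on A, both pools labelled Egr3-deficient read above wild type in all 14. On B they did so in 3 of 4. Of all kept probe sets, 47.9% on A and 38.9% on B had both pools above wild type. At least 2-fold in both pools was reached by 11 member probe sets on A and 1 on B, beside 1.2% and 4.27% of all kept probe sets. The limma test with Benjamini-Hochberg adjustment over the array type called 8 member probe sets of 6 genes higher on A and 1 on B, beside 0.0663% of kept probe sets on A and 1.02% on B. Without the intensity filter limma called 0 probe sets in all on either array type. At an unadjusted p under 0.05 it then gave 1304 higher and 1974 lower of 22626 on A, 11 of the higher ones members, and 1024 and 1085 of 22511 on B, with 1 member. Nothing is read from these counts, since this contrast chose the genes. Of the 14 on A, 11 had passed the intensity filter, from 9 genes, and 3 of 4 on B. Apart from Acta1, all of the 11 on A passed through the pools labelled Egr3-deficient alone, with wild type under the filter intensity.

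The kept member probe sets on A that missed the adjusted threshold were Tnnt3, Myh4 and Actn3. The total number of calls moved with the scaling. It was 9 higher and 0 lower on A in the main setting, 227 and 597 under median centring, 11 and 1 on values left without quantile normalization, and 17 and 17 with scaling on shared probe sets. On B, in the same order of settings, the counts were 138 and 82, 119 and 22, 2 and 0, and 0 and 0. At an unadjusted p under 0.05 the limma counts in the main setting were 1077 higher and 1730 lower on A. At the same level, limma gave 145 higher and 1804 lower on B under the shared scaling, which moved the median of all kept probe sets there from near 0 to -0.62.

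One probe set per gene, the brightest, gave a median member difference of 3.87 on A, from 0.10 for Myom2 to 4.74 for Myl1. On B the median, over only Myh4 and Myom2, was 2.03, and it was 0.0134 with scaling on shared probe sets, 0.814 with a pseudocount of 1, 1.21 with a pseudocount of 64 and 0.944 with each gene's probe sets averaged. All kept probe sets had a median of 0.11 on A, with 90% of them between -1.21 and 0.87. On B their middle 90% lay between -1.13 and 1.13. Every kept member probe set on A stood outside the A range, and on B only the first Myom2 probe set did.

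**Figure D2:**
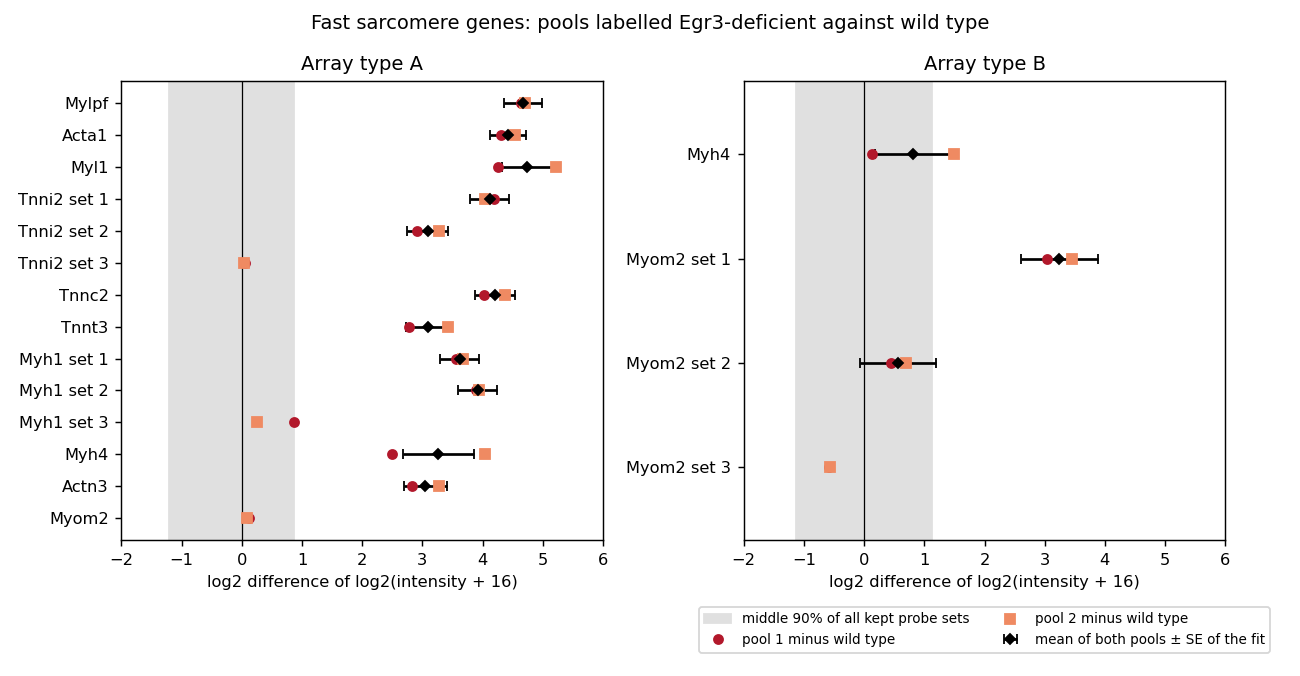
Difference from wild type of each member probe set on log2(intensity + 16), for pool 1 (circles), pool 2 (squares) and their mean with the SE of the limma fit (diamonds and bars, kept probe sets only). The grey band holds the middle 90% of all kept probe sets, -1.21 to 0.87 on A, and the 11 kept member probe sets on A lie to its right.

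The 2 pools labelled Egr3-deficient were then set against each other, a contrast between single pools that has no replicate and no test. By the brightest probe set per gene on A, pool 2 stood above pool 1 in 8 of 10 members, with a median difference of 0.30 and a range from -0.15 for Tnni2 to 1.55 for Myh4. Over all kept probe sets on A, pool 2 was above pool 1 in 6291 of 13576. Their median was -0.04, with 90% between -0.67 and 0.81. Myh4 and Myl1 lay past that upper bound, at the 99.3rd and 96.9th percentile, and the other members lay within it. On B, Myh4 again read higher in pool 2, by 1.37, and Myom2 by 0.42.

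Members did not all read alike between the pools, and with no replicate of a pool these differences were not tested. By their brightest probe sets, Mylpf, Myh1 and Tnni2 differed by at most 0.15 in either direction. The second Tnni2 probe set was 0.36 higher in pool 2, and the dim Myh1 probe set that was not kept was 0.62 lower. Tnnt3 and Actn3 were higher in pool 2 by 0.65 and 0.46. Of the heavy chains, Myh4 differed 3.54-fold in deposited intensity and Myh1 1.09-fold, so type IIb and type IIx RNA were in unlike proportion in the 2 pools as these probe sets read them.

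Slow-fibre and cardiac isoforms mostly ran the other way between the pools. Among 8 kept genes of slow, cardiac and embryonic sarcomeres on A, pool 2 was above pool 1 in 2, with a median of -0.55. The count over all kept probe sets on A was 6291 of 13576. Myl2, the slow and ventricular regulatory light chain, read 138 in pool 1 and 39.6 in pool 2, with wild type at 2.79. Tnnc1, the slow and cardiac troponin C, read 135, 66.2 and 22.5, and Myh7, the slow heavy chain, read 147, 65.7 and 34.5. These counterparts of Mylpf, Tnnc2 and Myh1 were thus highest in pool 1. Actc1, the cardiac actin, was an exception at 143, 277 and 15.2.

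The oxygen store myoglobin (Mb) read 300, 106 and 11.9, the same order as the slow isoforms. Among 9 kept members the count with pool 2 above pool 1 was 8, with a median of 0.35, beside 6291 of all 13576 kept probe sets. With median centring the members' count was 5 of 9 and their median 0.17, beside 5100 of all 13576 kept probe sets. The slow list kept its negative median under the 3 scalings tried. Other sarcomere genes had 4 of 10 higher in pool 2 and a median of -0.50. Among those lower in pool 2 was Myh2, the type IIa heavy chain of fast fibres, at -0.61. The sign depended on which of them were counted. Actn2, Myoz1, Tpm1 and Ttn were the kept genes at least 2-fold above wild type in both pools. Of these 4, 3 were higher in pool 2, with a median of 0.25. On B 2 of 3 kept genes were, with a median of 0.40, beside 6500 of all 13507 kept probe sets. Calcium-handling and energy genes had 7 of 13 and 0.04, which turned to -0.14 with median centring. The dimmest of these genes were left out by the filter. The lists were written with these values known, and the difference between lists was not tested.

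**Figure D3:**
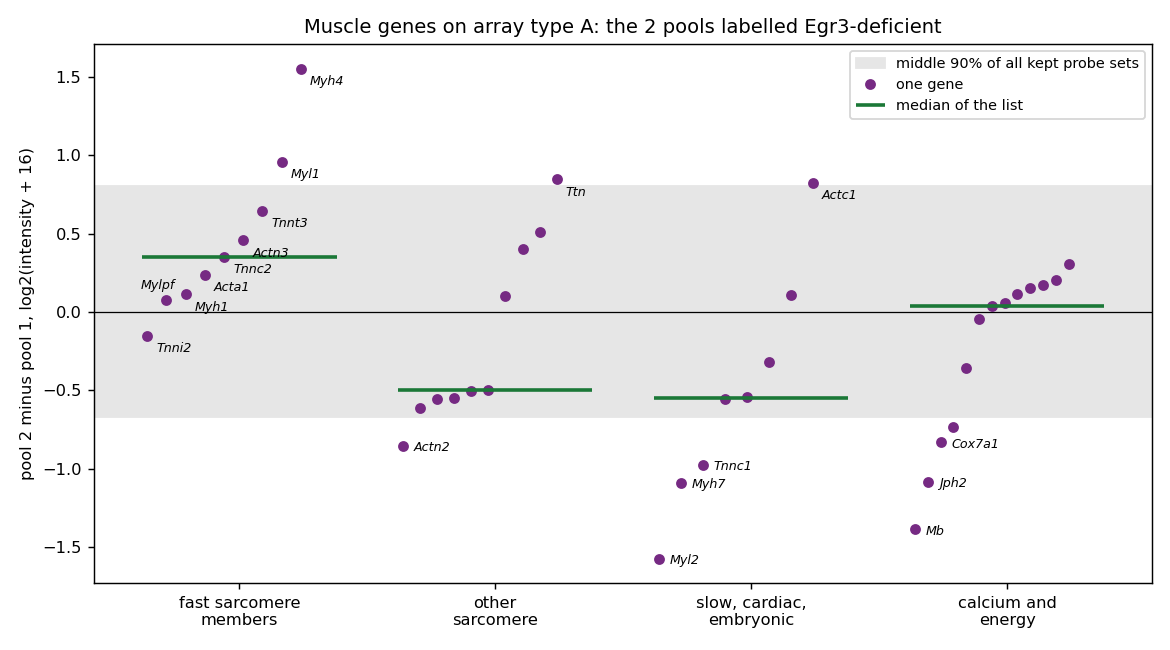
Pool 2 minus pool 1 on log2(intensity + 16) for kept muscle genes on array type A, 1 point a gene, grouped by list, with the list's median as a line and the middle 90% of all kept probe sets as a band. The members' median is 0.35, with Myh4 at 1.55 and Tnni2 at -0.15, and the slow, cardiac and embryonic list has a median of -0.55, with Myl2 lowest.

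The rest of the muscle programme was described from lists of related genes. In the sarcomere beside the members, 14 of 18 genes on A exceeded wild type in each pool labelled Egr3-deficient and 1 was below it in each, the median was 0.85, and 0 of 10 kept genes passed the limma test. Tpm1, a tropomyosin, read 299, 396 and 104, Ttn, the giant spring protein titin, 80.8, 169 and 28.0, Actn2, the other muscle alpha-actinin, 91.3, 48.4 and 12.2, and Myoz1, a Z-disc protein of fast fibres, 89.2, 104 and 36.9. On B, 7 of 8 were above wild type in both pools, with a median of 0.90. Ttn and Tpm1 had probe sets there too, at 118, 170 and 61.2, and 81.9, 77.3 and 38.3. One of the 3 kept there passed: Mybpc2, the fast myosin-binding protein C, rose from 64.2 in wild type to 285 and 386, a difference of 2.25 (SE 0.46, limma adjusted p = 0.00456). The call for Mybpc2 was lost without quantile normalization (adjusted p = 0.124 by limma), with scaling on shared probe sets (0.338), without the filter (0.455) and without the variance trend (0.144).

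Genes of calcium release and muscle energy supply had 18 of 21 above wild type in both pools on A, 1 of the others lower in both, with a median of 0.80. Of 13 kept, 1 passed. Ckm, the muscle creatine kinase that regenerates ATP, rose from 34.9 to 519 and 563, a difference of 3.51 (SE 0.31, limma adjusted p = 0.0104), a call that was lost only without the filter (0.336) among the settings tried. Ckm had a further probe set on B, which read 168, 160 and 137 and did not pass (limma adjusted p = 0.814). Atp2a1, the fast calcium pump of the sarcoplasmic reticulum, read 217, 277 and 31.3, and Eno3, the muscle enolase, 204, 239 and 34.7. Neither passed in the main setting. Both passed, with Actc1, when the adjustment ran over both array types, with scaling on shared probe sets and with median centring. On B, 0 of 3 kept genes passed and 4 of 6 were above wild type in both pools, while Jph2, a junction protein of the calcium release site, read 193, 222 and 237.

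Slow, cardiac and embryonic sarcomere genes had 11 of 17 on A above wild type in both pools, 3 lower in both, a median of 0.43, and 0 of 8 kept genes passed. On B this list had 2 genes that disagreed, Mybpc1 at 266, 265 and 106 and Tnnt2 at 102, 37.8 and 146. Myogenic regulators and genes of the junction and membrane of muscle fibres did not share the members' order. Of 18 on A, 6 exceeded wild type in each pool and 8 were below it in each, the median was -0.16, and 0 of 5 kept passed. Mef2a, one of the factors that read the MEF2 site, read 90.6, 199 and 269, and Mef2c 39.2, 70.3 and 86.9. Both genes are also used by neurons. Dysf, a membrane repair protein, read 30.2, 37.0 and 49.5, and Sgca, a sarcoglycan of the muscle membrane, 57.7, 57.6 and 46.9. Some genes best known from muscle stood above wild type in both pools on A but under the filter. Myod1, a master regulator of muscle identity, read 14.4, 25.5 and 2.68 there and 19.4, 32.8 and 34.1 on B. On A, the acetylcholine receptor subunits Chrna1 and Chrnb1 read 24.02, 36.2 and 12.8, and 9.46, 18.5 and 3.56. Others of the list under the filter went the other way on A, such as Musk at 12.9, 3.99 and 22.6 and Chrne at 2.46, 4.35 and 10.8. The genes named under the filter were chosen after their values were seen.

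Smooth muscle genes had 6 of 10 above wild type in both pools, 1 lower in both, a median of 0.17 and 0 of 5 kept past the test. Acta2, smooth muscle actin, read 378, 292 and 226 and Myl9, a smooth muscle regulatory light chain, 318, 259 and 242. Mylk, the kinase of that light chain, read 77.5, 82.4 and 113 and so was lower in both pools than in wild type, and Smtn, smoothelin, read 62.2, 68.3 and 55.8. On B, Synpo2 read 153, 125 and 69.2. Widely expressed relatives of the members, which neurons and glia use, had a median of 0.06 on A, with 5 of 10 above wild type in both pools, 2 lower in both, and 0 of 10 passed. Of these, Myl12a, a non-muscle regulatory light chain, read 689, 785 and 349, and Myh14, a non-muscle heavy chain, 264, 275 and 180. The non-muscle alpha-actinins Actn1 and Actn4 read 157, 195 and 121, and 349, 286 and 255. On B, Myh10, another non-muscle heavy chain, read 1871, 1844 and 2309. By the limma test at an unadjusted p under 0.05, these 6 related lists together held 20 of 51 kept genes on A and 3 of 12 on B, all of them higher, against 1 and 1 after adjustment. Over all kept probe sets, 7.93% on A and 7.4% on B passed the same level in that direction. Adjusted calls in them numbered from 0 without the filter to 14 with median centring.

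Markers of other tissues also differed between the pools, and their part in the muscle values was not tested. Liver genes summed to 423 in pool 1 and 10874 in pool 2, with wild type at 228 over 13 genes on A, 10 of them above wild type in both pools. Albumin (Alb) read 56.4, 3712 and 37.7, and Apoa2, an apolipoprotein made in liver, 109, 1964 and 21.4. The liver list was thus far higher in pool 2 than in pool 1. Its 10 kept genes had a median pool 2 minus pool 1 difference of 3.71. The same difference was 1.55, 0.96 and 0.65 for the members Myh4, Myl1 and Tnnt3. It was 0.46 for Actn3, 0.35 for Tnnc2, 0.24 for Acta1, 0.11 for Myh1, 0.077 for Mylpf and -0.15 for Tnni2, by their brightest probe sets. On B the liver list had 1 gene, Apoh, at 275, 198 and 125.

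Skin genes summed to 351, 1223 and 333 over 10 genes, 6 of them above wild type in both pools. Fat genes summed to 124, 469 and 190 over 6, 3 of them above in both, and connective tissue genes to 4898, 7408 and 4400 over 10, 6 of them above in both. All of these sums were highest in pool 2. Of the skin genes, Lor and Krt1 read 96.05, 204 and 72.1, and 86.5, 166 and 60.6. The fat genes Lpl and Fabp4 read 33.1, 155 and 123, and 27.4, 119 and 21.2. The collagens Col1a2 and Col3a1 read 1977, 2365 and 1531, and 1095, 2438 and 929. On B, Col1a2 and Dcn read 21.4, 6.52 and 25.2, and 81.6, 42.3 and 80.02. Red blood cell genes summed to 310, 145 and 110 over 5, 2 of them above in both, and were highest in pool 1. Slc4a1, the anion exchanger of red cells, read 144, 39.6 and 54.9, and Alas2, their heme synthesis enzyme, 104, 49.2 and 7.04. Bone and cartilage genes summed to 244, 218 and 213 over 9, 4 of them above in both, with Sp7 at 73.5, 83.9 and 80.6 and Acan at 51.3, 41.9 and 48.6. On B the bone gene Dmp1 read 397, 267 and 238. Choroid plexus genes summed to 370, 2676 and 237 over 6, 4 of them above in both, but most of the pool 2 sum came from Ttr alone. The median difference of that list from wild type was 0.34 in pool 1 and 0.18 in pool 2. Ttr, the transthyretin gene of choroid plexus and liver, read 150, 2408 and 23.96, and Sostdc1 85.6, 126 and 117.5. On B, Ttr read 584, 6739 and 50.9, and Clic6 400.3, 248 and 295. These sums include probe sets under the filter intensity, so a sum above 0 does not by itself show RNA of a tissue. The members' own sum over 10 genes was 3726, 4870 and 119.

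**Figure D4:**
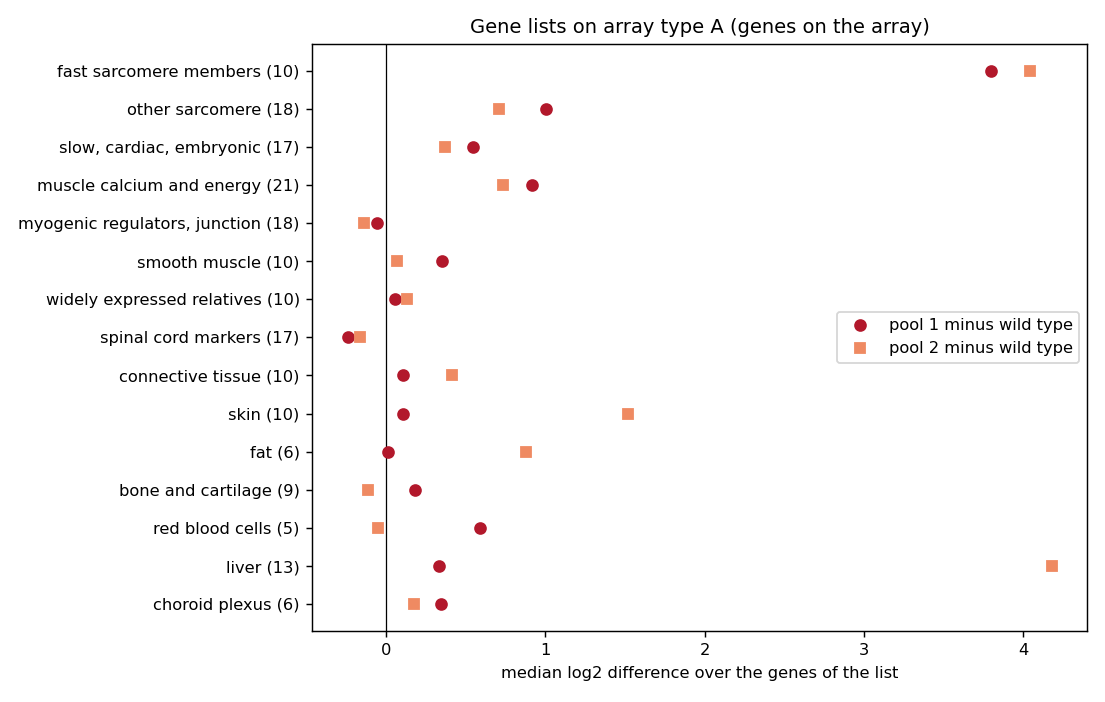
Median difference from wild type, on log2(intensity + 16), over the genes of each list on array type A, for pool 1 (circles) and pool 2 (squares), with the number of genes in brackets. The members stand at 3.80 and 4.04, and the liver list at 0.34 in pool 1 and 4.18 in pool 2.

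Genes whose 3-pool profile was most like that of the members were found by the root mean square distance from the members' median profile on A, each profile centred on its own mean. Likeness over 3 pools describes these libraries only. Ckm was the nearest, at 0.083 log2 units, followed by Actc1 (0.34), Atp2a1 (0.42) and Eno3 (0.54). Next came Egfl8, which read 81.3, 90.1 and 8.55, at 0.64, Fabp1, a lipid carrier of liver and gut, at 0.65, Myhas, an antisense RNA of the heavy chain cluster, at 0.69, and Nme6, a nucleoside diphosphate kinase family gene, at 0.69. Whether the Myhas probe set reads only its own strand is not stated in any source used here. On B the members' probe sets disagreed, so their median profile described none of them, and the nearest genes were C5ar1, Slc16a9, Samd11 and Ctag2.

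Genes next to the members were read in the same way. In the RefSeq order of GRCm38.p6, Myh1 and Myh4 are adjacent on chromosome 11, with Myh2 on one side and Myh8 on the other. Myh2, the type IIa heavy chain, read 61.5, 40.4 and 24.9, and Myh8, the perinatal chain, 9.20, 14.1 and 15.7. Among 21 readings of adjacent genes that are no members, 1 was at least 2-fold above wild type in both pools, beside 1.2% of all kept probe sets on A and 4.27% on B. Above wild type in both pools by any amount were 11 of 15 readings on A and 2 of 6 on B, beside 47.9% and 38.9%. The 2-fold reading was Lsp1, which encodes an actin-binding protein of leukocytes and lies between Tnni2 and Tnnt3 on chromosome 7, and it read 61.3, 92.7 and 9.02.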

How the data were processed

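Lumbar spinal cord RNA of 3 pools was read on 2 array types, 6 arrays in all. The values deposited by the authors were intensities on a linear scale, 1 for each probe set of an array, with a trimmed mean close to 150 throughout. The program that made them was not given in the sources used here. Detection calls were not used. Each array type was analysed alone. The 64 control probe sets of each were left out, intensities were transformed as log2(intensity + 16) and quantile normalized, and probe sets with a mean at or above the 40th percentile were kept, 13576 on A and 13507 on B. Models were fitted with limma 3.58.1 under R 4.3.3 (eBayes, trend on intensity). Adjusted p values are Benjamini-Hochberg over one array type, with a threshold of 0.05. The fit was checked on simulated data. Prior degrees of freedom were 6.54 for A and 52.3 for B, and precision is limited by the number of arrays.

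Symbols came from the platform annotation, and the RefSeq (GRCm38.p6) symbol was used where the gene identifier was found there. This held for 20364 probe sets of A and 14499 of B, whether or not the symbol changed. One symbol was given for 20380 and 14661, several for 691 and 245, and none for 1555 and 7605. Members and lists were chosen with earlier results of these data known. A list used the brightest probe set of a gene. Named genes were all members, the called genes of each muscle list or else the 4 whose smaller change of the 2 pools was largest, the 2 brightest genes of other tissue lists, and the 8 profiles on A and 4 on B nearest the members. Genes named beyond these, such as Myh2, Myh8 and Lsp1 as neighbours and Egr3, follow from position or from the label. Myod1, Chrna1, Chrnb1, Musk, Chrne, Aqp4, Map2 and Slc1a2 were named after their values were seen. Alternatives were no quantile normalization, median centring, scaling on the 100 probe sets common to both array types, pseudocounts of 1 and 64, all probe sets tested, a stricter filter (60th percentile), other variance models, adjustment over both array types, a gene's probe sets averaged, each pool labelled Egr3-deficient left out, and, chosen after seeing the data, control probe sets kept in the normalization.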

Additional observations from a re-analysis of the deposited data

How the results depend on the processing

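No paired analysis was possible because the groups compared share fewer than 2 replicate numbers: there is a single wild-type pool. Leaving out a pool labelled Egr3-deficient leaves no residual degree of freedom, so it gives values without a test. The members' median difference from wild type on A was 3.87, and it was 5.08 with a pseudocount of 1, 2.37 with 64, 3.18 with each gene's probe sets averaged, and 3.80 to 4.04 with either pool left out. On B it was 2.03, and it was 0.0134 with scaling on shared probe sets, 0.814 and 1.21 with pseudocounts of 1 and 64, 0.944 with probe sets averaged, and 1.58 to 2.47 with either pool left out. Under shared scaling and a pseudocount of 1 the brightest Myom2 probe set on B was another one. The members' pool 2 minus pool 1 median on A was 0.295, and 0.0758 with median centring. The second Myom2 probe set on B reversed to -0.107 with shared scaling.

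Member probe sets called on A by limma numbered 8, and 0 without the filter, where 0 of all 22626 probe sets were called and 11 members were among 1304 higher at an unadjusted p under 0.05. In the other settings tried they numbered 7 to 11, beside totals of 8 to 227 higher over all kept probe sets. On B the 1 call became 0 without quantile normalization, with shared scaling, without the filter and without the variance trend, where 1 had an unadjusted p under 0.05 in each, and 0 under the stricter filter (60th percentile), where 0 member probe sets were kept. Related-list calls numbered 2, and 1 without quantile normalization, 14 with median centring, 4 with shared scaling, 0 without the filter (23 on A and 4 on B with an unadjusted p under 0.05), 1 without the variance trend and 5 with adjustment over both array types. With control probe sets kept in the normalization, an alternative chosen after seeing the data, 10 member probe sets were called on A and 1 on B. Probe sets dim in wild type limit how far any ratio can be read.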
